A study of Mus musculus with 39 samples.

Results

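The effect of an enriched environment (EE) on gene expression in the aged hippocampus was examined in 14 of the 39 mice sequenced, namely 5 mice aged 24 months from EE cages (24mEE, libraries MG_UKJ_24_1070 and so on, written below by age and mouse number as 24_1070, 24_1071, 24_1072, 24_1074 and 24_1076) and 9 of the same age from standard cages (24mSC, 24_1055, 24_1056, 24_1062, 24_1063, 24_1064, 24_1065, 24_1073, 24_1075 and 24_1077). These were all mice of this age whose library names give the age followed by a mouse number. The remaining 6 24mSC mice carry an OE code in that place and were left out of the main comparison. All mice were males of the C57BL/6 strain, a common inbred laboratory strain. The 24mSC mice were held in groups in plain cages. The 24mEE mice came from such cages and spent the last months before analysis in larger ones with running wheels, climbing platforms, tunnels and houses that were moved weekly, so that running, social contact and exploration cannot be told apart. RNA of the hippocampus was sequenced, with 1 library per mouse, and the other mice of the series were 10 controls (5mSC) and 9 EE mice (5mEE) of 5 months.

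An enriched environment combines physical exercise with sensory, social and spatial stimulation. In young rodents it is known to promote the survival of new neurons in the dentate gyrus, to raise neurotrophins such as brain-derived neurotrophic factor (Bdnf) and to add synapses. The old hippocampus, in contrast, forms few new neurons and carries a low-grade immune activation, in which genes induced by interferon, antigen presentation by the major histocompatibility complex (MHC) and complement take part. These themes are among those of the gene lists described here, which were chosen with earlier results of these data known.

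Between 15002708 and 26303885 reads were assigned to genes in the 24mSC libraries and between 16808177 and 30147869 in the 24mEE libraries. Pairwise correlations of log2 levels over genes lay between 0.986 and 0.995, and the median SD of a gene between mice was 0.165 log2 units in 24mEE and 0.15 in 24mSC. Mouse 24_1071 (24mEE) and mouse 24_1065 (24mSC) lay farthest out on the first and the second principal component, which held 19.3% and 11.9% of the variance. Markers of the hippocampal fields were well expressed in both groups, with the granule cell gene Prox1 at 82 ± 21.1 (SD, n = 5) in 24mEE and 70.1 ± 15.4 (SD, n = 9) in 24mSC, in counts scaled to a common library size (CPM). Of 11 markers of hypothalamus and pituitary, 7 were too low to be tested. The mouse numbers also divide the controls. Mice 24_1073, 24_1075 and 24_1077 are numbered among the 24mEE mice, while the other 6 24mSC mice have lower numbers (24_1055 to 24_1065). Neither the meaning of the numbers nor the run in which a library was sequenced is stated in the labels or methods, so values are also given against each of these ranges of controls. The study's methods report that its mice for RNA were kept in separate runs at different times. The labels do not say which mouse was in which of these runs.

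No gene passed the test for a difference between 24mEE and 24mSC. Of 16566 genes tested with edgeR's quasi-likelihood test and Benjamini-Hochberg adjustment, 0 (0%) were higher and 0 (0%) were lower in 24mEE at an adjusted p under 0.05, and the smallest adjusted p was 0.854. DESeq2 and limma voom also called 0 genes. At an unadjusted p under 0.05 the edgeR test listed 945 genes, 409 higher (2.47%) and 536 lower (3.24%) in 24mEE, against 886 with DESeq2. Fold changes were small. The median size of a log2 fold change was 0.0645, and 73 genes of at least 1 CPM on average exceeded 0.5 in size. The median 95% interval reached 0.182 log2 units to each side, so that for a typical gene an estimate within this distance of 0 cannot be told from none. The values below are therefore levels and estimates of genes that did not pass the test, and none of them is a call.

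**Figure D1:**
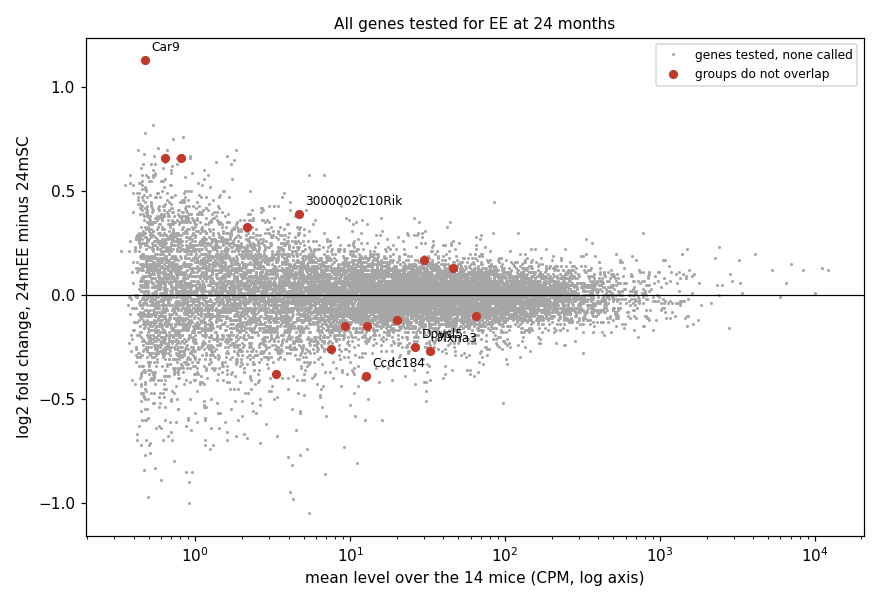
Log2 fold change (24mEE minus 24mSC) of each of the 16566 genes tested against its mean level over the 14 mice in CPM, on a log axis. Grey points are genes, none of which was called, and red points are the 16 genes whose 5 24mEE levels all lie above or all below the 9 24mSC levels.

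The 10 genes of at least 1 CPM with the smallest p among those lower in 24mEE are described first. Plxna3 (ENSMUSG00000031398, chromosome X of GRCm38 from 74329066 to 74344689), a receptor for semaphorins that guides hippocampal axons, was at 28.1, 26.4, 30.6, 29.2 and 31.2 CPM in mice 24_1070, 24_1071, 24_1072, 24_1074 and 24_1076. In 24mSC it ranged from 31.3 to 37.7 CPM with a median of 35.6. The groups did not overlap, although the highest 24mEE mouse and the lowest 24mSC mouse lay close together. The log2 fold change was −0.27 (SE 0.0596, 95% interval −0.39 to −0.14, adjusted p = 0.86 with edgeR's quasi-likelihood test and Benjamini-Hochberg adjustment), and it was −0.23 against mice 24_1073, 24_1075 and 24_1077 and −0.29 against mice 24_1055 to 24_1065.

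Dpysl5 (ENSMUSG00000029168, chromosome 5 from 30711564 to 30799375) encodes a collapsin response mediator protein of growing neurites and, like Plxna3, belongs to the signalling of guidance cues. Its levels were 25.9, 21.8, 23.5, 22.1 and 24.3 CPM in 24mEE and 26.4 to 31.2 CPM (median 26.9) in 24mSC, again without overlap. The log2 fold change was −0.25 (SE 0.0611). Ccdc184 (ENSMUSG00000029875, chromosome 15 from 98167158 to 98170134) was at 12.1, 9.43, 10.5, 10.7 and 10.3 CPM in 24mEE and at 12.2 to 16.4 CPM (median 13.5) in 24mSC, with a log2 fold change of −0.39 (SE 0.0875). Mouse 24_1070 was the highest 24mEE mouse for both genes and reached almost the lowest controls. Vash2, a vasohibin that removes the last tyrosine of tubulin, was at 1.89 ± 0.477 CPM (SD, n = 5) against 2.8 ± 0.373 CPM (SD, n = 9). Doc2a, a calcium sensor of transmitter release, was at 5.25 ± 0.782 against 7.18 ± 1.07 CPM. Dpp10, an auxiliary subunit of Kv4 potassium channels, was at 52.4 ± 5.68 against 68.7 ± 11.2 CPM, and Nrsn2, a neuronal vesicle protein, at 51.3 ± 4.45 against 62.5 ± 5.4 CPM. For these 4 genes the highest 24mEE mice reached into the range of the controls. Parm1 and Ldb2, a cofactor of LIM-domain transcription factors, completed the 10 genes of this direction with log2 fold changes of −0.31 (SE 0.0832) and −0.23 (SE 0.0605).

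Adamts2 differed most among these genes, and its value depended on the controls. Adamts2 (ENSMUSG00000036545, chromosome 11 from 50602084 to 50807573), an enzyme that trims the ends of fibrillar procollagens, was at 7.19, 6.77, 7.98, 7.61 and 7.43 CPM in 24mEE and from 6.98 to 19.5 CPM (median 13.1) in 24mSC. The 24mEE mice were closely alike, whereas the controls were widely spread. The 6 controls numbered 24_1055 to 24_1065 lay between 11.4 and 19.5 CPM, above every 24mEE mouse, and mice 24_1073, 24_1075 and 24_1077 were at 8.26, 6.98 and 13.1 CPM. The log2 fold change was −0.81 (SE 0.18) against all 9 controls. It was −0.99 (SE 0.12) against mice 24_1055 to 24_1065, where Adamts2 was the only gene called (adjusted p = 0.0058 with edgeR's quasi-likelihood test), and −0.36 (SE 0.167, adjusted p = 1) against mice 24_1073, 24_1075 and 24_1077.

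Of the genes with the smallest p in the opposite direction, the transcript 3000002C10Rik (ENSMUSG00000070282, chromosome 9 from 109827943 to 109832706) was at 6.09, 5.27, 5.18, 5.62 and 5.49 CPM in 24mEE and at 3.63 to 4.65 CPM (median 4.1) in 24mSC, without overlap, with a log2 fold change of 0.39 (SE 0.0902). It is annotated as a transcribed processed pseudogene, so that reads may be shared with its parent gene and its level is uncertain. Kcnq1ot1 (ENSMUSG00000101609, chromosome 7 from 143203458 to 143296549), the imprinted noncoding RNA that runs antisense to Kcnq1, was at 10.5, 13, 11.8, 10.5 and 9.66 CPM in 24mEE and 7.32 to 10.2 CPM (median 8.38) in 24mSC. The log2 fold change of Kcnq1ot1 was 0.37 (SE 0.0909). As the library kit does not keep the strand, reads from both strands of this locus cannot be told apart. Fbn1, the microfibril protein fibrillin 1, was at 23.1 ± 2.09 CPM (SD, n = 5) against 19 ± 1.78 CPM (SD, n = 9), and Usp2, a deubiquitinating enzyme, at 72 ± 6.57 against 61.6 ± 4.78 CPM. Both overlapped between the groups. The others were Abcb4, a phospholipid transporter (log2 fold change 0.31, SE 0.0821), the actin-binding Svil (0.34, SE 0.0948), the protease gene Adamts20 (0.30, SE 0.0841), the ubiquitin ligase adaptor Spsb1 (0.29, SE 0.0862), Gm16835 (0.37, SE 0.106) and ENSMUSG00000089788 (0.21, SE 0.058), for which no symbol was given.

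Complete separation of the groups was rare. With groups of this size, chance alone would separate about as many of the genes tested as were found. The lack of overlap described for single genes above is therefore no evidence of a difference. Every 24mEE mouse lay above every 24mSC mouse for 7 genes (0.0423% of those tested) and below for 9 genes (0.0543%). The smallest p of all genes (5.2e-05 unadjusted, adjusted p = 0.85 with edgeR) belonged to one of them, Car9, a carbonic anhydrase, which lies below 1 CPM and is named here because its values were seen. It was at 0.73 ± 0.125 CPM in 24mEE and 0.333 ± 0.106 CPM in 24mSC.

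**Figure D2:**
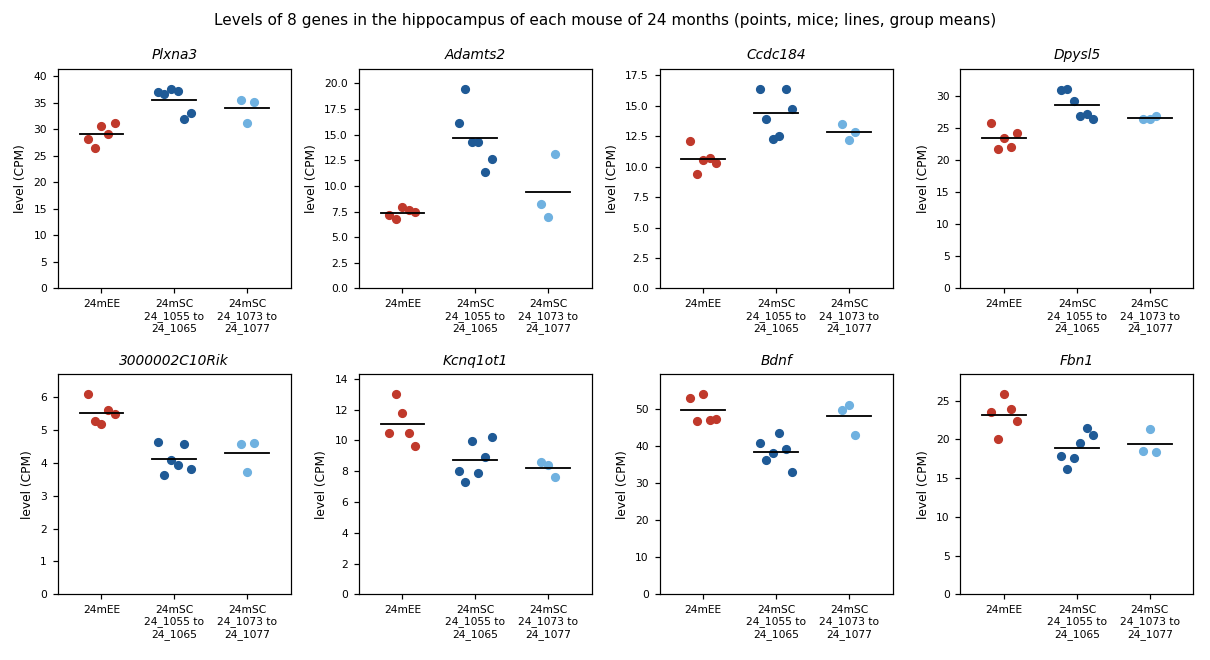
Levels of 8 genes in CPM in each mouse, for 24mEE (red), 24mSC mice 24_1055 to 24_1065 (dark blue) and 24mSC mice 24_1073, 24_1075 and 24_1077 (light blue), with group means as lines. Plxna3, Ccdc184, Dpysl5 and 3000002C10Rik do not overlap between 24mEE and all controls, while for Adamts2 and Bdnf the controls 24_1073 and 24_1075, but not 24_1077, lie within or next to the 24mEE range.

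The neurotrophin Bdnf (ENSMUSG00000048482, chromosome 2 from 109674700 to 109727007), which supports the survival of neurons and the strengthening of synapses, was among the genes with the smallest p of its list. It was at 53, 46.6, 53.9, 47.1 and 47.2 CPM in 24mEE and from 33 to 51.1 CPM (median 40.8) in 24mSC. All 24mEE mice lay above the control median, but mice 24_1073 (49.8 CPM) and 24_1075 (51.1 CPM) of 24mSC lay within the 24mEE range. The log2 fold change was 0.25 (SE 0.0856, 95% interval 0.07 to 0.43, adjusted p = 0.86 with edgeR's quasi-likelihood test), with 0.36 against mice 24_1055 to 24_1065 and 0.05 against mice 24_1073, 24_1075 and 24_1077. Of the 16 neurotrophin genes and receptors tested, 7 were above 0 and 9 below, and the median was −0.01.

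Genes induced by neuronal activity varied widely among mice of both groups. Fos, the classical immediate early gene, was at 3.71, 5.38, 6.42, 8.25 and 13.5 CPM in 24mEE and from 4.9 to 24.7 CPM (median 9.68) in 24mSC, with a log2 fold change of −0.53 (SE 0.332). Npas4, a transcription factor specific to neuronal activity, was at 15.7 ± 3.19 CPM (SD, n = 5) against 15.7 ± 6.69 CPM (SD, n = 9). Arc, which acts at active synapses, was at 94.8 ± 28.4 against 104 ± 42.4 CPM and the transcription factor Egr1 at 84.6 ± 22.3 against 102 ± 21.1 CPM. In 24mSC, mouse 24_1065 was the highest for these 4 genes, and in 24mEE mouse 24_1076 was the highest for Fos, Arc and Egr1. Nr4a2, an orphan nuclear receptor, was at 50.1 ± 6.05 against 64.4 ± 16.2 CPM, and its log2 fold change of −0.36 (SE 0.141) was −0.51 against mice 24_1055 to 24_1065 and −0.02 against mice 24_1073, 24_1075 and 24_1077. Of 30 activity-induced genes, 22 were below 0, where 49.1% of all genes tested were, and 1 of them had an unadjusted p under 0.05. The median was −0.07, and the mean log2 level of the list overlapped between 24mEE (4.27 to 4.62) and 24mSC (4.24 to 4.76).

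Antigen presentation and interferon genes were lower in 24mEE by their medians, with wide overlap between mice. B2m, the light chain of MHC class I, averaged 122 CPM over the 5 24mEE mice, with an SD of 9.67, and 137 CPM over the 9 controls, with an SD of 22.6. H2-K1 and H2-D1, which encode class I heavy chains, were at 36.7 ± 5.27 against 44.5 ± 11.3 CPM and at 41.8 ± 4.79 against 49.6 ± 12.7 CPM (SD, n = 5 and 9). Mice 24_1064, 24_1077 and 24_1055 were the highest controls for both heavy chains, and the 24mEE mice lay among or just below the other controls. The heavy chain genes are similar in sequence, and the split of reads among them is uncertain. The 19 genes listed here as class I genes also include others, such as B2m, Tap1, Tapbp, Psmb8 and Nlrc5. Of the 19, 18 were below 0 with a median of −0.20, and 1 (Nlrc5, the class I transactivator, −0.43, SE 0.191) had an unadjusted p under 0.05. Of 32 interferon response genes, 29 were below 0 with a median of −0.28, and 7 had an unadjusted p under 0.05 in this direction, where 49.1% and 3.24% of all genes tested did. Ifitm3, a membrane protein that blocks the entry of viruses, was at 9.01, 7.64, 5.66, 6.71 and 8.27 CPM in 24mEE and from 7.08 to 11 CPM (median 10.2) in 24mSC. Mice 24_1073 and 24_1075 were its lowest controls and the other 7 lay above every 24mEE mouse. Ifih1, a sensor of viral RNA, was at 4.26 ± 0.706 against 5.52 ± 1.09 CPM, and its log2 fold change was −0.36 (SE 0.142).

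The mean log2 level of the interferon list was 2.16, 1.83, 1.70, 1.59 and 1.92 in mice 24_1070, 24_1071, 24_1072, 24_1074 and 24_1076 and ranged from 1.72 to 2.37 (median 2.12) in 24mSC. Mouse 24_1070 was the highest 24mEE mouse, and mice 24_1073 and 24_1075 were the lowest controls. Against mice 24_1055 to 24_1065 the median of the list was −0.30, with 30 of 32 genes below 0 (50.5% of all genes in that fit) and 11 lower at an unadjusted p under 0.05 (6.08% of all genes). Against mice 24_1073, 24_1075 and 24_1077 the median was −0.17, 27 of 32 genes were below 0 (52% of all genes in that fit) and 0 were lower at an unadjusted p under 0.05 (0.856% of all genes), in a fit with fewer libraries. For MHC class I the medians were −0.23 and −0.18, with 18 and 17 of 19 genes below 0 and 7 and 0 genes lower at an unadjusted p under 0.05. On a common scale of all 39 libraries the interferon list was at 1.73 ± 0.219 in 24mEE (SD, n = 5), 1.97 ± 0.24 in 24mSC (n = 9), 1.68 ± 0.182 in the OE-named controls (n = 6), 1.57 ± 0.157 in 5mSC (n = 10) and 1.99 ± 0.597 in 5mEE (n = 9). The level in 5mEE was above that in 5mSC by its mean, with the largest spread of the 5 groups. The OE-named controls were closer to 24mEE than to the numbered controls. MHC class II genes are expressed by microglia and macrophages, and 5 of 7 were below 0 (median −0.22), among them Cd74, the invariant chain, at 3.74 ± 1.05 against 6.12 ± 2.76 CPM. Mouse 24_1077 of 24mSC held 12.4 CPM of Cd74. The class II median was −0.05 against mice 24_1055 to 24_1065 and −0.53 against mice 24_1073, 24_1075 and 24_1077, and it lay between −0.28 and −0.02 when each library was left out in turn. In bulk tissue, fewer cells of a type and less RNA per cell cannot be told apart.

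Many interferon-induced promoters share the interferon-stimulated response element. A search of the 250 bases before the first listed transcription start of each gene (RefSeq, GRCm38.p6) for TTTCNNTTTC on either strand found it in 12 of the 24 interferon response genes with a promoter entry and in 3 of 15 class I genes, and in 3.04% of all 27025 promoters. The member with the smallest p among the interferon genes holding it, Stat2 (27.2 ± 2.2 CPM in 24mEE against 30 ± 1.68 CPM in 24mSC), a transcription factor of the interferon response, is shown with B2m. Capitals mark the match, which in B2m is on the opposite strand.
Stat2 (chr10:128270248-128270497, + strand): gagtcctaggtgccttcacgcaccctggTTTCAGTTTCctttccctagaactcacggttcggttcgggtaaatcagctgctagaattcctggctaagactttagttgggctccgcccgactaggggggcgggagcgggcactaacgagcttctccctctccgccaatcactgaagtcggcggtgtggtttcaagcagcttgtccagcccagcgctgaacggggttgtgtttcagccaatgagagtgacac
B2m (chr2:122147437-122147686, + strand): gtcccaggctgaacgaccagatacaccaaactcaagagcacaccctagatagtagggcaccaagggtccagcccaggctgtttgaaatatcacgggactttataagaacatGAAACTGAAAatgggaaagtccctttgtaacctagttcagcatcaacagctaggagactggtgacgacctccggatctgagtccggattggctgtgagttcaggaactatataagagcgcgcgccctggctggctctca
A match is a property of the letters, and binding was not measured in these mice.

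Chaperones of the endoplasmic reticulum (ER), which fold secreted and membrane proteins, and heat shock proteins were lower in 24mEE by their median, and the controls divided by mouse number. Of 28 genes, 27 were below 0 (49.1% of all genes tested), with a median of −0.11, and 7 were lower at an unadjusted p under 0.05 (3.24% of all genes tested). Hspa5, the main chaperone of the ER, was at 223, 206, 248, 196 and 205 CPM in 24mEE and from 180 to 328 CPM (median 238) in 24mSC. Mice 24_1073, 24_1075 and 24_1077 had the 3 lowest control levels (180, 217 and 219 CPM), within or below the 24mEE range, and the log2 fold change of −0.24 (SE 0.115) was −0.38 against mice 24_1055 to 24_1065 and 0.07 against mice 24_1073, 24_1075 and 24_1077. Pdia4 and Pdia6, which form disulfide bonds, had log2 fold changes of −0.27 (SE 0.0966) and −0.23 (SE 0.0959), and Pdia4 was at 27.8 ± 3.22 against 33.4 ± 4.99 CPM (SD, n = 5 and 9). The calcium-binding chaperone Calr was at 254 ± 34.1 against 296 ± 43.4 CPM. The mean log2 level of the list was 5.83 to 6.00 in 24mEE, 5.94 to 6.17 in mice 24_1055 to 24_1065 and 5.89 to 5.93 in mice 24_1073, 24_1075 and 24_1077. Accordingly the median was −0.16 against the lower numbers, with 26 of 28 genes below 0 and 12 lower at an unadjusted p under 0.05 (6.08% of all genes in that fit), and −0.03 against the higher ones, with 19 of 28 below 0 and 0 lower at an unadjusted p under 0.05 (0.856% of all genes in that fit).

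The ER stress element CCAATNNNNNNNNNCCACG was present in the same window in 7 of the 23 chaperone genes with a promoter entry (Pdia6, Calr, Hspa5, Hsp90b1, Canx, Creld2 and Dnajc3) and in 0.122% of all promoters. Pdia6, the member with the smallest p among them, and Hspa5 are shown, with the match in capitals.
Pdia6 (chr12:17266339-17266588, + strand): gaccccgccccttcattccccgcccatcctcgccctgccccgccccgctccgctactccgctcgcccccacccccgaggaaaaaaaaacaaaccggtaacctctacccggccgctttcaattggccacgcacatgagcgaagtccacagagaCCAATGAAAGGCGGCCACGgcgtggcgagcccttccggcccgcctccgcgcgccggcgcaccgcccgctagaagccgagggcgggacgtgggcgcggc
Hspa5 (chr2:34771840-34772089, + strand): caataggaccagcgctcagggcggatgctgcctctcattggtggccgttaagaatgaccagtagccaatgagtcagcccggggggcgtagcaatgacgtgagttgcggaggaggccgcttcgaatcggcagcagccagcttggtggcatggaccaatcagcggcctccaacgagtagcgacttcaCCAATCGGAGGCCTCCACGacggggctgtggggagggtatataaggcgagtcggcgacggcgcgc

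Cholesterol synthesis, which neurons largely leave to astrocytes in the adult brain, showed 17 of 19 genes below 0 (median −0.11) and 4 lower at an unadjusted p under 0.05, where 49.1% and 3.24% of all genes tested were. Sqle, which makes squalene epoxide, was at 60.3 ± 4.72 CPM (SD, n = 5) against 69 ± 7.66 CPM (SD, n = 9) and Dhcr7 at 27.4 ± 2.61 against 31.1 ± 3.08 CPM. Mouse 24_1055 held the highest level of both genes. The median of the list was −0.14 against mice 24_1055 to 24_1065 and −0.10 against mice 24_1073, 24_1075 and 24_1077. The sterol regulatory element TCACNCCAC was found in 1 of 12 promoters (Hmgcs1) and in 1.04% of all promoters.

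**Figure D3:**
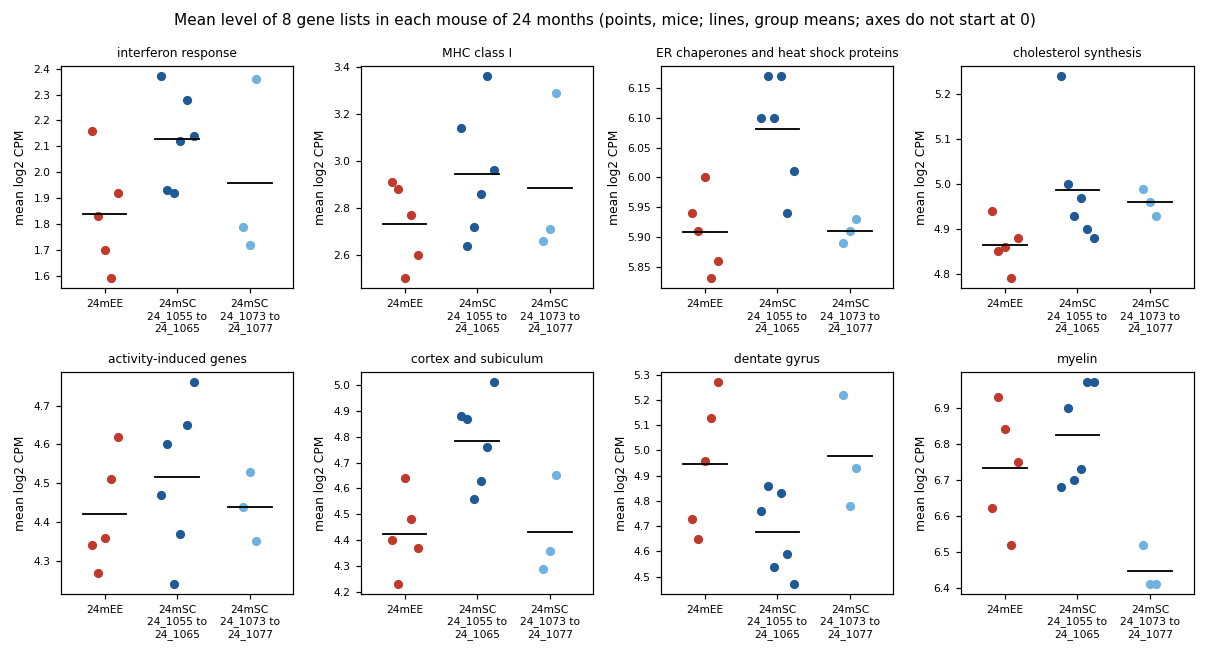
Mean log2 CPM of 8 gene lists in each mouse, for 24mEE (red), 24mSC mice 24_1055 to 24_1065 (dark blue) and 24mSC mice 24_1073, 24_1075 and 24_1077 (light blue), with group means as lines and axes that do not start at 0. The ER chaperone and the cortex and subiculum lists lie at like levels in 24mEE and in mice 24_1073, 24_1075 and 24_1077, and the myelin list lies lowest in the latter.

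Genes of neurogenesis, the formation of new neurons from dividing progenitors, gave 13 of 16 below 0 (median −0.05), where 49.1% of all genes tested were. At an unadjusted p under 0.05, 3 were lower (3.24% of all genes tested). These were Stmn1 and Tubb3, which act on or form microtubules in young neurons and are also expressed in mature ones, and the neuropeptide gene Tac2. Stmn1 was at 17, 19.2, 21.7, 18 and 20.4 CPM in 24mEE and from 19.3 to 27 CPM (median 23.3) in 24mSC, and its log2 fold change was −0.25 (SE 0.0839). Tubb3 was at 191 ± 21 against 224 ± 23.3 CPM and Tac2 at 4.88 ± 0.79 against 6.44 ± 1.1 CPM. Against mice 24_1055 to 24_1065, Stmn1 was at −0.33 and 3 genes of the list were lower at an unadjusted p under 0.05 (6.08% of all genes). Against mice 24_1073, 24_1075 and 24_1077, Stmn1 was at −0.10 and 0 genes of the list were lower at an unadjusted p under 0.05 (0.856% of all genes). The list median was −0.10 against the former controls, with 9 of 15 genes below 0 (50.5% of all genes in that fit). Against the latter it was −0.06, with 10 of 15 below 0 (52% of all genes in that fit). Dcx, the usual marker of immature neurons, was at 28.9, 24.2, 26.1, 28.6 and 30.7 CPM in 24mEE and from 24.7 to 30.9 CPM (median 29.7) in 24mSC, so that both groups spanned nearly the same range (log2 fold change −0.07, SE 0.0637, 95% interval −0.21 to 0.06). Of the markers of dividing cells and progenitors, Cdk1, Ccnb1, Eomes and Igfbpl1 were too low to be tested.

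Synaptic genes were grouped by their side of the synapse. Over all genes tested, 49.1% were below 0 and 50.9% above. Of 21 synaptic vesicle genes 17 were below 0 (median −0.11). Among them was Stx1a, a SNARE protein of vesicle fusion, with a log2 fold change of −0.17 (SE 0.0661). Syt2, a calcium sensor, was at 25.5 ± 8.46 against 33.9 ± 8.72 CPM (SD, n = 5 and 9). Against mice 24_1055 to 24_1065 the log2 fold change was −0.20 for Stx1a and −0.61 for Syt2. Against mice 24_1073, 24_1075 and 24_1077 it was −0.13 for Stx1a and 0.03 for Syt2. Of 25 glutamate receptor and postsynaptic genes 16 were above 0 (median 0.03), among them Camk2a, the kinase of synaptic plasticity, at 4660, 4960, 4020, 4620 and 4350 CPM in 24mEE and from 3430 to 4470 CPM (median 3850) in 24mSC. For Camk2a the log2 fold change amounted to 0.20 (SE 0.0784), and the scaffold gene Shank3 had the same value (0.20, SE 0.0777). The member of this list with the smallest p, the kainate receptor subunit Grik1, lay in the other direction (−0.24, SE 0.0891). Among the interneuron markers 12 of 15 were below 0 (median −0.09), and Nos1, the neuronal nitric oxide synthase, had a log2 fold change of −0.25 (SE 0.0975). Against mice 24_1073, 24_1075 and 24_1077 the interneuron median was −0.15, with 14 of 15 below 0 (52% of all genes in that fit). Against mice 24_1055 to 24_1065 it was −0.09, with 10 of 15 below 0 (50.5% of all genes in that fit). The GABA list had 8 of 17 genes above 0 and a median of −0.01.

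Glial lists lay close to 0 against all 9 controls. Of 20 general microglia markers 13 were above 0 (median 0.04), none with an unadjusted p under 0.05, and P2ry12, a receptor of resting microglia, was at 61.3 ± 6.69 against 56.9 ± 5.51 CPM. Activated microglia genes had a median of 0.05 and complement genes of −0.05, and C4b, a complement component, was at 104, 120, 93.8, 96.3 and 104 CPM in 24mEE and from 79.3 to 144 CPM (median 117) in 24mSC. Gfap, the filament of astrocytes, was at 508, 794, 597, 501 and 635 CPM against 470 to 630 CPM (median 535), where mouse 24_1071 lay far and mouse 24_1076 just above the highest control. Of 14 resting astrocyte markers 12 were above 0 (median 0.05). Their median was 0.15 against mice 24_1073, 24_1075 and 24_1077 and −0.01 against mice 24_1055 to 24_1065. For oligodendrocyte precursor genes the median of 0.03 was 0.25 and −0.02 against these ranges. The myelin list had a median of 0.04 with 12 of 18 genes above 0, and this value concealed a division of the controls. The list level was 6.52 to 6.93 in 24mEE, 6.68 to 6.97 in mice 24_1055 to 24_1065 and 6.41 to 6.52 in mice 24_1073, 24_1075 and 24_1077. Against the last 3 mice all 18 genes were above 0 (median 0.31) and 14 were higher at an unadjusted p under 0.05 (2.09% of all genes), whereas 14 of 18 were below 0 against mice 24_1055 to 24_1065 (median −0.07). Mbp, a main protein of myelin, was at 2800, 4360, 3720, 3070 and 3460 CPM in 24mEE and from 2350 to 3750 CPM (median 3190) in 24mSC.

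The cortex and subiculum, dentate gyrus and choroid plexus lists differed between the ranges of mouse numbers, whereas the meningeal list did so little. All 9 markers of cortex and subiculum were below 0 (median −0.25), with Tbr1, a transcription factor of deep cortical layers, at 37.9, 31.8, 44.1, 39.1 and 38.6 CPM in 24mEE and from 35.6 to 66.8 CPM (median 48.1) in 24mSC. The list level was 4.23 to 4.64 in 24mEE, 4.56 to 5.01 in mice 24_1055 to 24_1065 and 4.29 to 4.65 in mice 24_1073, 24_1075 and 24_1077. The median was −0.32 against the former controls and −0.01 against the latter. All 10 dentate gyrus markers were above 0 (median 0.17), with 10 of 10 against mice 24_1055 to 24_1065 (median 0.29) and 4 of 10 against mice 24_1073, 24_1075 and 24_1077 (median −0.02). Dsp, a desmosome gene of granule cells, was at 39.4, 33.6, 46.8, 63.5 and 59.5 CPM in 24mEE and from 26.7 to 58.4 CPM (median 37.2) in 24mSC. Choroid plexus genes were at a mean log2 level of 0.72 to 1.90 in 24mEE and 0.52 to 2.23 in 24mSC, and their median of 0.00 was −0.33 against mice 24_1055 to 24_1065 and 0.46 against mice 24_1073, 24_1075 and 24_1077. All 5 red blood cell genes tested were below 0 (median −0.34), but the median ranged from −0.58 to −0.18 when each library was left out in turn and was −0.05, with 2 of 5 genes above 0, when the OE-named controls were added. Of 11 meningeal genes 9 were below 0 (median −0.24, with −0.25 against mice 24_1055 to 24_1065 and −0.24 against mice 24_1073, 24_1075 and 24_1077). The part that dissection, blood or the order of the mice plays in the gene values above was not tested.

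**Figure D4:**
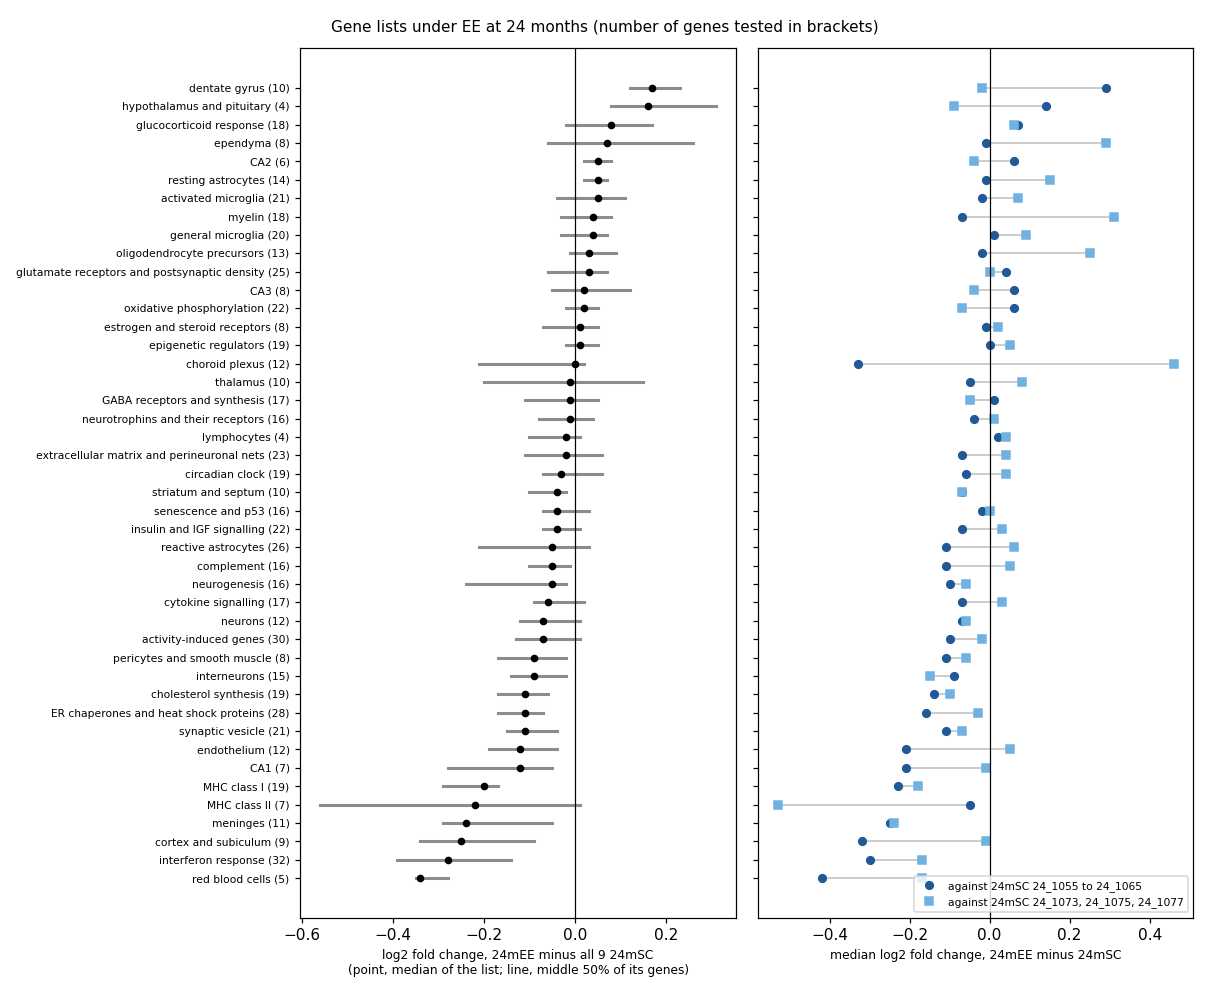
Median log2 fold change of the gene lists other than those taken from the study (24mEE minus 24mSC), with the number of genes tested in brackets. The left panel gives the median and the middle 50% of the genes against all 9 controls, and the right panel the medians against mice 24_1055 to 24_1065 (circles) and against mice 24_1073, 24_1075 and 24_1077 (squares). The interferon, MHC class I, cholesterol and meningeal lists are among those that lie below 0 against both. The medians of the myelin and dentate gyrus lists change sign with the controls. The ER chaperone median is −0.16 against mice 24_1055 to 24_1065 and −0.03 against mice 24_1073, 24_1075 and 24_1077.

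Stress hormone and clock genes completed the lists. Of 18 genes induced by glucocorticoids or mediating their action 13 were above 0 (median 0.08), where 50.9% of all genes tested were. With the OE-named controls added, the median was −0.02. At an unadjusted p under 0.05, 2 genes were higher (2.47% of all genes tested). These were Fkbp5, a co-chaperone of the glucocorticoid receptor, at 69.1, 64.5, 65.5, 75.3 and 71.3 CPM against 49.6 to 68.6 CPM (median 62), and the transcription factor gene Klf9, with a log2 fold change of 0.16 (SE 0.0652). Arntl, the activating factor of the circadian clock, was at 49.8 ± 7.89 against 42.2 ± 3.95 CPM, and Per2, a repressor of the clock, at 27.3 ± 4.14 against 32.6 ± 4.27 CPM. Their log2 fold changes were 0.24 (SE 0.0839) and −0.25 (SE 0.0979), and the median of the 19 clock genes was −0.03. The time of day at which each mouse was killed is not given in the labels.

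The study followed 16 genes by qPCR and named 10 as hubs of an interaction network. It chose them on its own sequencing data, which may include these libraries, so they are not independent evidence of a direction. Of the 15 qPCR genes tested 8 were above 0 and 7 below (median 0.04), and of the 9 hubs tested 4 were above and 5 below (median −0.06). In both lists Bcl3, a regulator of NF-kB, and Grb10, an adaptor that dampens insulin signalling, were the 2 genes lower at an unadjusted p under 0.05. Over all genes tested, 3.24% were lower at this p. Bcl3 was at 0.67, 0.752, 0.755, 0.646 and 0.452 CPM in 24mEE and from 0.703 to 1.34 CPM (median 0.97) in 24mSC, with a log2 fold change of −0.63 (SE 0.199). Mice 24_1073 and 24_1075 (0.738 and 0.703 CPM) were the controls within the 24mEE range. Grb10 was at 31.2 ± 4.12 against 36.6 ± 3.49 CPM. Against mice 24_1055 to 24_1065 the log2 fold change was −0.76 for Bcl3 and −0.27 for Grb10. The values were −0.34 and −0.14 against mice 24_1073, 24_1075 and 24_1077. Esr2, an estrogen receptor, held 2 to 12 reads per 24mEE library and 3 to 29 per 24mSC library and was too low to be tested.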

How the data were processed

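Libraries were made from total RNA of the hippocampus with a TruSeq v2 kit and sequenced single-end. Per the submitters' processing notes, bcl2fastq 1.8.3, STAR 2.4.1d and featureCounts 1.4.6-p4 were used with the build GRCm38. The counts as deposited by the authors are whole reads per gene without normalization, for 47729 genes, of which 47224 carry a symbol. No source used here names the annotation release. The study's own results came from another path (TopHat, HTSeq and DESeq2 with the sequencing run as a term), and the run is not given in the labels. The deposited RPKM values were not used, and 0 columns of per-library values were left out.

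Age and housing in the labels set the groups. The 14 numbered libraries of 24 months were analysed in R 4.3.3. Genes were kept with edgeR's filterByExpr, scaled by TMM and tested with edgeR 4.0.16 (quasi-likelihood test, Benjamini-Hochberg over all 16566 genes tested, threshold 0.05), and the test was checked on simulated counts. CPM values use TMM-scaled library sizes. Mean log2 CPM values of lists use a prior count of 2. Intervals are at 95%. Library depth sets the precision of low levels, and each SE includes the spread of the mice. Within each group, all pairs of libraries differed by more than counting noise (chi-square divided by its degrees of freedom at least 2.39).

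The members and the 46 gene lists were chosen with earlier results of these data known, and no test was run over a list. Named genes were the 10 genes of each direction with the smallest p and a mean of at least 1 CPM (as fewer than 10 were called), per list the 3 members with the smallest p, 17 anchor genes, and the genes of both lists of the study. Not every gene that this rule names is reported here. Gene coordinates come from GENCODE on GRCm38 (16518 of the genes tested). Promoters come from RefSeq (GRCm38.p6), with the first listed start of each gene.

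Alternatives were DESeq2 1.42.0, limma 3.58.1 (voom), robust dispersions, RLE size factors, no filter or at least 1 CPM in 5 libraries, all 39 libraries in the fit, 1 or 2 surrogate variables (sva 3.50.0), either range of control numbers, the OE-named controls added, and each of the 14 libraries left out.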

Additional observations from a re-analysis of the deposited data

Results flagged for a closer look

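The mean log2 level of each of 46 lists was compared among the mice of each group by Dixon's ratio, the gap of an extreme mouse to its neighbour over the range of the group. Of 92 such comparisons 8 passed the critical value, and chance alone flags about 1 in 20. In 24mEE, mouse 24_1070 was high for extracellular matrix and perineuronal nets (4.27, next 4.05) and for CA1 markers (6.72, next 6.38). In 24mSC, mouse 24_1065 accounted for 3 of the 8, being high for the glucocorticoid response (5.41, next 5.16) and low for CA2 (4.10, next 4.21) and CA3 markers (5.64, next 6.06). Mouse 24_1055 was high for cholesterol synthesis (5.24, next 5.00), mouse 24_1077 for MHC class II (2.31, next 1.72, at the limit) and mouse 24_1073 for lymphocyte markers (2.09, next 1.71). The median of the CA1 list was −0.29 when mouse 24_1070 was left out and −0.12 with it.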

How the results depend on the processing

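The count of called genes was 0 in 11 of 12 alternatives and 0 to 0 when each of the 14 libraries was left out in turn. The exception was 1 gene, Adamts2, lower in 24mEE against 24mSC mice 24_1055 to 24_1065 only (−0.99, adjusted p = 0.0058 with edgeR). Genes with an unadjusted p under 0.05 numbered 631 to 1380 when a library was left out, 485 against mice 24_1073, 24_1075 and 24_1077, 1706 against mice 24_1055 to 24_1065, and 1625 with the OE-named controls added. The median of the cortex and subiculum list moved from −0.25 to −0.01 against mice 24_1073, 24_1075 and 24_1077, and that of the activity-induced genes from −0.07 to −0.52 when the OE-named controls were added. The cause was not tested. When each library was left out in turn, medians ranged from −0.39 to −0.17 for the interferon response, −0.27 to −0.15 for MHC class I, −0.14 to −0.09 for ER chaperones, −0.31 to −0.18 for cortex and subiculum, −0.10 to −0.02 for activity-induced genes and 0.09 to 0.25 for the dentate gyrus. Of the 46 list medians 16 kept their sign in all alternatives run. For named genes, 3568 of 3645 alternative values kept the sign of the main value. Robust dispersions, both other filters on low counts and 1 surrogate variable are not among these values. Most alternatives reuse the same libraries, and many of these genes were named for a small p in the main fit. Kept signs are therefore no independent evidence of a difference. Depth limits genes under 1 CPM. No paired analysis was possible because the mouse numbers are not shared between the groups.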
